A study of Capsicum chinense and Capsicum frutescens with 8 samples.

Results

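The leaf small RNA libraries of 2 cultivated peppers were compared, 1 library of Capsicum frutescens (Accession 4) against 1 of C. chinense (Bhut jolokia, a very pungent chilli). They are 2 of the 8 libraries of the study, which also sampled stem, flower buds and fruit of both species. Each species was represented by 1 genotype, the plants carried no treatment, and fully expanded leaves were taken from mature plants grown under glass at 24 to 26 °C with 16 h of light. RNA of 3 biological replicates was pooled before the library was made, so each leaf group is a single library and no test between the leaf groups can be made. Intervals given below are 95% intervals of counting error alone. No miRNA is particular to leaf, so the tissue labels were not checked against markers. In these whole-leaf samples, fewer cells of a type and less RNA per cell cannot be told apart.

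Reads were summed over entries with the same miR number. The leaf libraries together listed 584 such families of 1336 in the series, and 42 families with 50 or more reads in both libraries together were kept. These held 99.9% of the listed conserved reads of C. chinense leaf and 99.8% of those of C. frutescens leaf. None of the 42 was missing from either library. miR164 (38 and 12 reads in C. chinense and C. frutescens) and miR393 (28 and 27) lay just inside the minimum. miR319 (34 and 13) and miR156 (34 and 10) lay just outside it.

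Plant microRNAs are cut from hairpin transcripts by Dicer-like enzymes, and the strand that an Argonaute protein keeps guides the cutting or translational block of matching mRNAs. In leaves, conserved families act on transcription factors that set leaf polarity, cell division and ageing. Others act on auxin signalling, on copper and phosphate use, on the microRNA machinery itself, and, in the nightshade family, on disease resistance genes of the NBS-LRR class.

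The entries with most reads were the same 4 in both leaves, and their sequences are shown because they set the share of every other family. Each entry came with 1 sequence per library. Capitals mark the longest run that the sequences of both libraries have in common.
pta-miR166a, C. chinense: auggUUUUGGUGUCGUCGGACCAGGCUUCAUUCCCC
pta-miR166a, C. frutescens: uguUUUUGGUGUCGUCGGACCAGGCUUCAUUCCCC
gma-miR166k, C. chinense: aguaaugAUCUCGGACCAGGCUUCAUUCC
gma-miR166k, C. frutescens: AUCUCGGACCAGGCUUCAUUCCcc
gma-miR6300, C. chinense: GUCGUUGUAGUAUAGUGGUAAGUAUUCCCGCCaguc
gma-miR6300, C. frutescens: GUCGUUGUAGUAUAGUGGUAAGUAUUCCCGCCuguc
sly-miR482b, C. chinense: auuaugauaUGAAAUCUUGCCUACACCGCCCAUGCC
sly-miR482b, C. frutescens: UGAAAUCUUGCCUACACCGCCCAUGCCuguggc
The runs in common were 32, 22, 32 and 27 nt long, and the ends outside them differed between the libraries. Of the 311 entries listed in both leaves, 68 (21.9%) had the same sequence in both, and 215 had a run of at least 16 nt in common. Sequences of this length and with such ends were not read as mature forms, so no seed was marked.

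The 4 families past the 4-fold mark are shown next for comparison of what was counted under each name. Capitals again mark the run in common.
rgl-miR5141, C. chinense: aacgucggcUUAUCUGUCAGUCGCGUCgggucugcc
rgl-miR5141, C. frutescens: UUAUCUGUCAGUCGCGUCuggucugcc
stu-miR6023, both: UUCCAUGAAAGGGUUUUUGGAU
rgl-miR5139, C. chinense: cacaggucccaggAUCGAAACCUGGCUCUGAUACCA
rgl-miR5139, C. frutescens: AUCGAAACCUGGCUCUGAUACCA
sly-miR4376, C. chinense: ACGCAGGAGAGAUGAUGCUGGA
sly-miR4376, C. frutescens: ACGCAGGAGAGAUGAUGCUGGAaa
The miR6023 sequence was the same in both leaves. The miR5139 sequence was shorter in C. frutescens, 23 nt against 36 nt. Entries with sequences over 24 nt held 97.5% of the listed conserved reads in C. chinense leaf and 84.9% in C. frutescens leaf, and mature plant miRNAs are shorter than that.

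The listed conserved reads numbered 811863 in C. chinense leaf and 246508 in C. frutescens leaf, a difference in depth of 3.29-fold. C. chinense leaf listed 529 families and C. frutescens leaf 258, and at the depth of the smaller library 253 families would be listed on average in C. chinense leaf. In all, 203 families were in both leaves, 326 in C. chinense alone and 55 in C. frutescens alone, the last 2 groups with at most 12 and 5 reads each. C. chinense leaf stood apart from the other libraries of its species. Over the 71 families with at least 10 reads in at least 2 of the 8 libraries, its Spearman correlation was 0.915 with C. frutescens leaf, 0.850 with C. frutescens stem, 0.799 with C. frutescens flower and 0.678 with C. frutescens fruit. With C. chinense stem, flower and fruit it was between 0.584 and 0.610. These points share the depth and the dominance of miR166 within a library. No value of the leaf comparison can be given without this library, and whether its placement comes from the tissue, from handling or from an exchange of libraries was not tested. An exchange would change which species a leaf ratio describes.

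miR166, whose targets are the HD-ZIP III genes that set the upper side of a leaf, took most reads in both leaves. Of these 516854 came from C. chinense, 63.7% of the listed conserved reads (95% interval 63.6 to 63.8), and 164762 from C. frutescens, 66.8% (66.7 to 67.0). The shares thus lay close together. miR482, which targets NBS-LRR resistance genes, took 11.5% in C. chinense and 13.8% in C. frutescens. miR6300, whose name other plant data have tied to pieces of tRNA, took 14.2% and 8.87%, and miR3711 took 6.50% and 5.24%. Without miR166 in the denominator miR6300 led in C. chinense leaf with 39.1%, followed by miR482 with 31.6%. In C. frutescens leaf miR482 led with 41.5%, followed by miR6300 with 26.7%. miR3711 came next in both, with 17.9% and 15.8%.

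**Figure D1:**
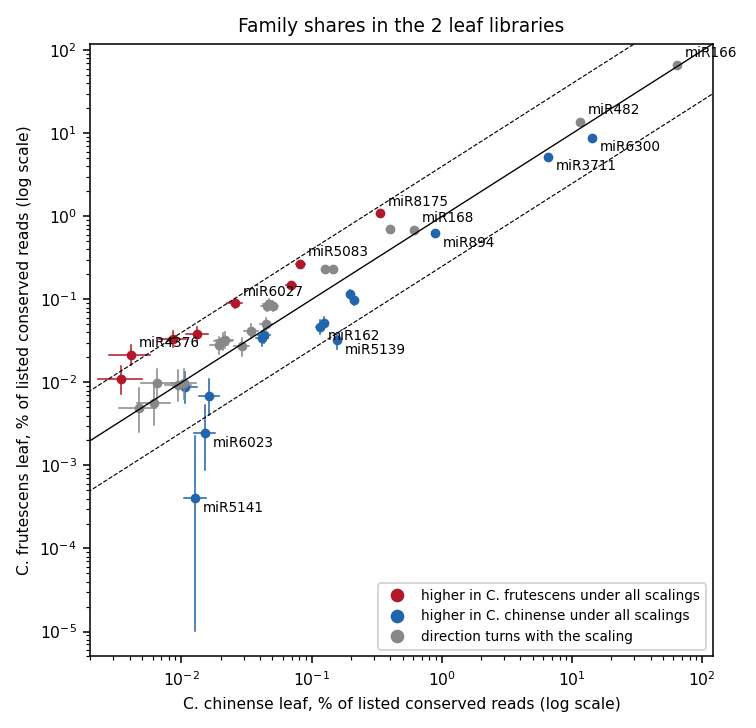
Share of each of the 42 families in C. chinense leaf (x axis) and C. frutescens leaf (y axis), both in percent of listed conserved reads on log scales. Lines through the points are 95% counting intervals, the solid line marks equal shares and the dashed lines 4-fold; miR5141, miR6023 and miR5139 lie below the lower dashed line and miR4376 above the upper one.

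Most families differed little between the leaves. The ratio of shares, C. frutescens over C. chinense, was within 2-fold for 27 of 42 families, and the median log2 ratio was 0.18, or 0.32 without miR166. By shares 24 families were higher in C. frutescens and 18 in C. chinense. At 4-fold or more, 1 family was higher in C. frutescens (2.38% of the 42) and 3 were higher in C. chinense (7.14%). Without miR166 in the denominator these counts were 2 and 3, the added family being miR170. The 95% counting interval of the ratio lay above 1 for 20 families, below 1 for 11, and held 1 for the other 11.

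Directions depended on the scaling. TMM factors from the leaf libraries moved every log2 ratio by -1.07, TMM factors from all 8 libraries by -0.67, DESeq2 size factors by -0.88, and TMM factors from the 42 families alone by -0.30. Under these scalings and the 4 denominators tried (all reads, and those without miR166, without the fragment entries or without the families with CCA-ended entries), 8 families were higher in C. frutescens and 14 in C. chinense in each one that counted them. The other 20 turned, among them miR166, miR482, miR168, miR159, miR160 and miR398. Each scaling or denominator moves all log2 ratios by the same amount. Whether a direction held thus follows from the size of the ratio and is no separate support. The TMM and DESeq2 factors all moved ratios toward C. chinense. miR6149 therefore held at a log2 ratio of -0.22 though its counting interval held 1, while miR398 turned at 0.92. A limit on sequence length changed the denominator too. Entries of 18 to 24 nt held 2.55% of the reads in C. chinense leaf and 15.1% in C. frutescens leaf. Among them was gma-miR166k of C. frutescens leaf (24 nt, 32322 reads), while its sequence in C. chinense leaf was 29 nt (176273 reads). With these entries alone, 5 of the 8 families higher in C. frutescens had a value and all 5 turned (miR170, miR393, miR4376, miR530 and miR5300). All their reads but 1 of miR530 were in such entries, so their turn came from the denominator. Of the 14 higher in C. chinense 9 had a value and miR408 and miR5139 turned. Ratios below are of shares of all listed conserved reads unless another scaling is named.

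**Figure D2:**
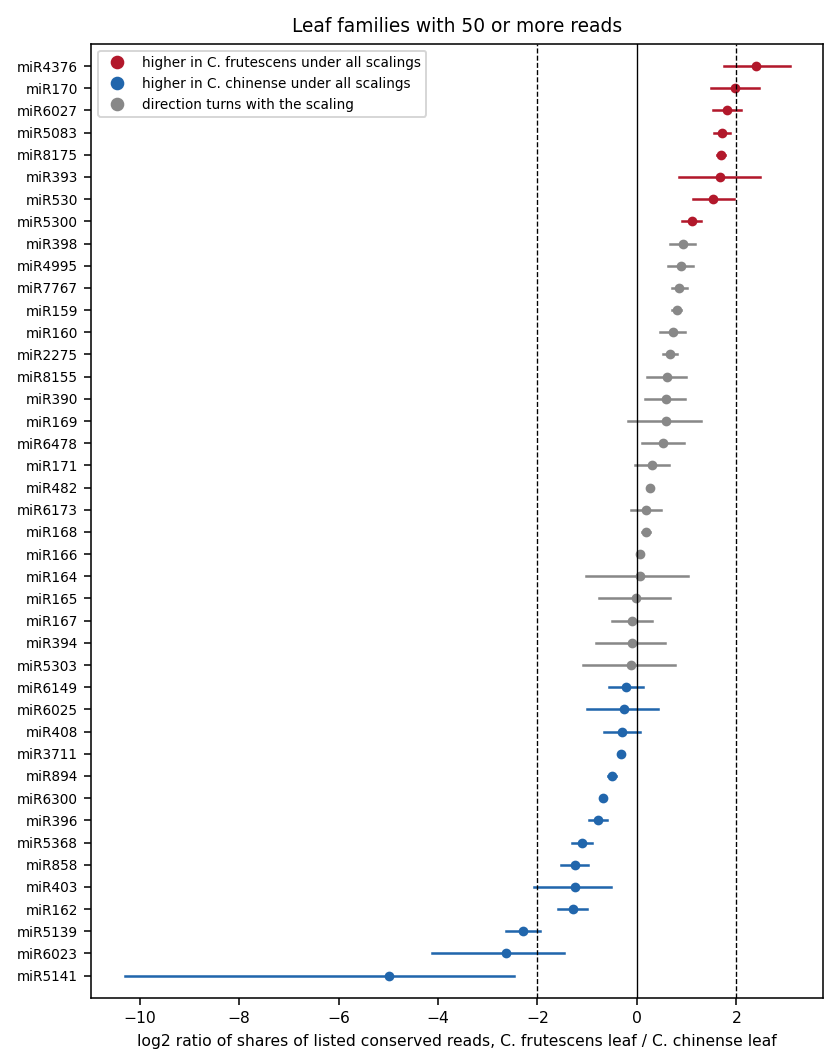
Log2 ratio of shares, C. frutescens leaf over C. chinense leaf, for the 42 families with 50 or more reads. Counts are of 1 library per species. Points are the ratios, horizontal lines their 95% counting intervals, dashed lines 4-fold, and colours show whether the direction held under all scalings and denominators; miR4376 is at 2.40 and miR5141 at -4.98.

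The family furthest apart was miR5141, with 104 reads in C. chinense leaf and 1 in C. frutescens leaf. Its share was 31.6-fold higher in C. chinense, with a counting interval of 5.54 to 1259, which the single read makes wide. miR6023, a Solanaceae family on the resistance gene list, had 123 and 6 reads and was 6.22-fold higher in C. chinense (2.78 to 17.3). miR5139, which like miR6300 is on the list of possible fragments, had 1269 and 79 reads and was 4.88-fold higher in C. chinense (3.88 to 6.20). All 3 stayed higher in C. chinense under every scaling. With entries of 18 to 24 nt alone, which drops the 36-nt miR5139 sequence of C. chinense, the log2 ratio of miR5139 turned to 3.87 against a floor of 3 reads. Among them the whole interval lay past 4-fold for miR5141 alone.

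miR4376, which in tomato targets a calcium pump gene, had 33 reads in C. chinense leaf and 53 in C. frutescens leaf. Its share was 5.29-fold higher in C. frutescens (3.36 to 8.43), and the log2 ratio ranged from 1.34 to 2.54 over the scalings. With entries of 18 to 24 nt alone it turned to -0.16 on the same reads, through the denominator. sly-miR4376 gave 19 and 41 of these reads. The next families in this direction were just under 4-fold. miR170 had 70 and 83 reads, a ratio of 3.91 (2.81 to 5.45), and every read was listed under the 5p arm, while the 3p arm is the one known to target GRAS transcription factors in Arabidopsis. miR6027, from the nightshade family, had 208 and 221 reads, a ratio of 3.50 (2.88 to 4.25).

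Another 5 families were higher in C. frutescens leaf under all scalings, though miR393, miR530 and miR5300 turned with the denominator of 18 to 24 nt entries. Of these 5, miR5083 had 663 and 661 reads (ratio 3.28) and miR8175, a fragment entry, 2738 and 2685 (ratio 3.23). Nearly equal read numbers thus stood for a 3-fold difference in share, since the C. frutescens library was smaller. miR393, which targets auxin receptors through its 5p arm, had 28 and 27 reads (ratio 3.18, 1.80 to 5.59). Here 18 and 20 of the reads were named for the 3p arm and 9 and 5 for the 5p arm. miR530 had 107 and 94 reads (ratio 2.89), and miR5300, which targets NBS-LRR genes in tomato, 562 and 366 (ratio 2.14, 1.88 to 2.45).

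On the C. chinense side, below 4-fold, stood 2 families of the small RNA machinery. miR162, which targets the Dicer-like gene DCL1, had 936 and 116 reads in C. chinense and C. frutescens leaf and was 2.45-fold higher in C. chinense, a ratio of 0.408 (0.334 to 0.495). miR403, which targets AGO2, had 133 and 17 reads and was 2.38-fold higher (1.43 to 4.20). miR168, which targets AGO1, had 4957 and 1704 reads and a ratio of 1.13 toward C. frutescens, a direction that turned with TMM factors and DESeq2 factors. All 3 families of this list were kept, and their median log2 ratio was -1.25 against 0.18 for all 42 families.

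miR858, which targets MYB genes of phenylpropanoid metabolism, had 1007 and 129 reads and was 2.37-fold higher in C. chinense leaf (1.97 to 2.87). miR396, which targets growth-regulating factors, had 1612 and 284 reads and was 1.72-fold higher in C. chinense (1.52 to 1.96). Both kept this direction under all scalings. The MYB list had 2 of its 4 families kept, the other being miR159, a regulator of GAMYB genes, with 3262 and 1720 reads. Its ratio was 1.74 toward C. frutescens (1.64 to 1.84), and it turned with the TMM factors of the leaf libraries and the DESeq2 factors. Of the phase change list only miR159 was kept. miR319 had a ratio of 1.26 (0.610 to 2.45) and miR156, which targets SPL genes, of 0.969 (0.427 to 2.01), so at this depth no difference was detectable for either.

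Of the 17 development families 13 were kept, 9 with a share higher in C. frutescens and 4 in C. chinense. Of all 42 families, 24 and 18 were. No development family reached 4-fold, where 9.52% of all 42 families did. Of the 9, miR170 and miR393 alone kept their direction under all scalings, and of the 4 miR396 alone. The median log2 ratio of the 13 was 0.31, against 0.18 for all 42. The 4 auxin families were all kept, with a median of 0.65. miR160, which targets auxin response factors, had 407 and 204 reads (ratio 1.65, 1.39 to 1.96), and miR390, which starts tasiRNA production, 170 and 77 (ratio 1.49, 1.12 to 1.96). miR167, also a regulator of auxin response factors, had 236 and 67 reads, and its interval held 1 (0.702 to 1.23). miR160, miR390 and miR167 turned with the scaling. With all its reads kept, miR393 turned with the denominator of 18 to 24 nt entries, to a log2 ratio of -0.90.

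Of the 7 nutrient and copper families 2 were kept. miR398, which targets superoxide dismutases, had 383 and 220 reads and a ratio of 1.89 (1.60 to 2.24), which turned with the TMM factors of the leaf libraries. miR408, which targets copper proteins such as plantacyanin, had 339 and 84 reads and a ratio of 0.816 with an interval that held 1 (0.635 to 1.04). miR395, miR397, miR399 and miR827 were listed below the minimum, and miR857 was not listed in either leaf.

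Of the 20 resistance gene and Solanaceae families 8 were kept, 4 with a share higher in C. frutescens and 4 in C. chinense, with log2 ratios from -2.64 for miR6023 to 2.40 for miR4376 and a median of 0.07. miR482 had a ratio of 1.20 (1.18 to 1.21), which turned with the TMM factors of either set of libraries, the DESeq2 factors and the TMM factors of the 42 families. miR6149 had 352 and 92 reads, and miR6025 87 and 22, both with intervals that held 1. As a whole the list took 11.7% of the listed reads in C. chinense leaf and 14.1% in C. frutescens leaf, nearly all of it miR482.

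Of the 8 families whose entries can come from pieces of rRNA or tRNA 7 were kept. The list took 15.9% of the reads of C. chinense leaf and 10.8% of those of C. frutescens leaf. Besides miR5139, 3 of its families were higher in C. chinense under all scalings and denominators in which they were counted. These were miR6300 (115315 and 21867 reads, 1.60-fold), miR894 (7230 and 1552 reads, 1.41-fold) and miR5368 (1713 and 242 reads, 2.15-fold). miR8175 went the other way, at 0.337% in C. chinense leaf against 1.09% in C. frutescens leaf. The other 2, miR6173 and miR6478, had ratios of 1.14 and 1.44 that turned with the scaling. Their part in the differences of other families was not tested, but without the fragment list in the denominator the median log2 ratio was 0.18 and the families past 4-fold numbered 1 and 2, since miR5139 belongs to the list.

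A CCA end, which mature tRNAs carry at their 3′ end, stood at the end of 8 entries in both leaves. The 6 with 50 or more reads in both leaves together are described, chosen after their sequences were seen. The CCA is in capitals.
ppt-miR894, both: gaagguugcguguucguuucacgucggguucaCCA
ath-miR8175, both: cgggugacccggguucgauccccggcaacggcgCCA
zma-miR2275c-5p, both: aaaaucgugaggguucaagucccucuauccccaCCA
pab-miR3711, C. chinense: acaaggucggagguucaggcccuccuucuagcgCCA
pab-miR3711, C. frutescens: cggagguucaggcccuccuucuagcgCCA
cpa-miR8155, both: aggaucguaaccuggcucugauaCCA
The remaining one was rgl-miR5139. The miR5139 and miR8155 sequences ended in the same 18 nt in each leaf, yet miR5139 was 4.88-fold higher in C. chinense while miR8155 had 175 and 81 reads and a ratio of 1.52 toward C. frutescens, which turned with the scaling. A CCA end alone does not mark a tRNA, since ghr-miR482a and ppt-miR160e also ended in CCA in C. chinense leaf and sly-miR6027-3p in C. frutescens leaf. No genome was used to place these sequences.

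The 6 families took 8.05% of the listed reads in C. chinense leaf and 7.25% in C. frutescens leaf. In C. chinense stem, flower and fruit they took 0.288%, 0.130% and 0.163%, and in the same organs of C. frutescens 3.41%, 30.7% and 1.20%. The 2 leaves were thus near each other and C. chinense leaf was above the other C. chinense libraries. miR3711 had 52798 reads in C. chinense leaf against 4, 1 and 1 in C. chinense stem, flower and fruit. In the same 3 organs of C. frutescens it had 26942, 102023 and 4078, and in its leaf 12915. miR894 had 7230 reads in C. chinense leaf against 4, 1 and 1, and 7907, 20562 and 6112 in C. frutescens stem, flower and fruit. In these families C. chinense leaf was thus nearer to the C. frutescens libraries than to its own species, and why was not tested.

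**Figure D3:**
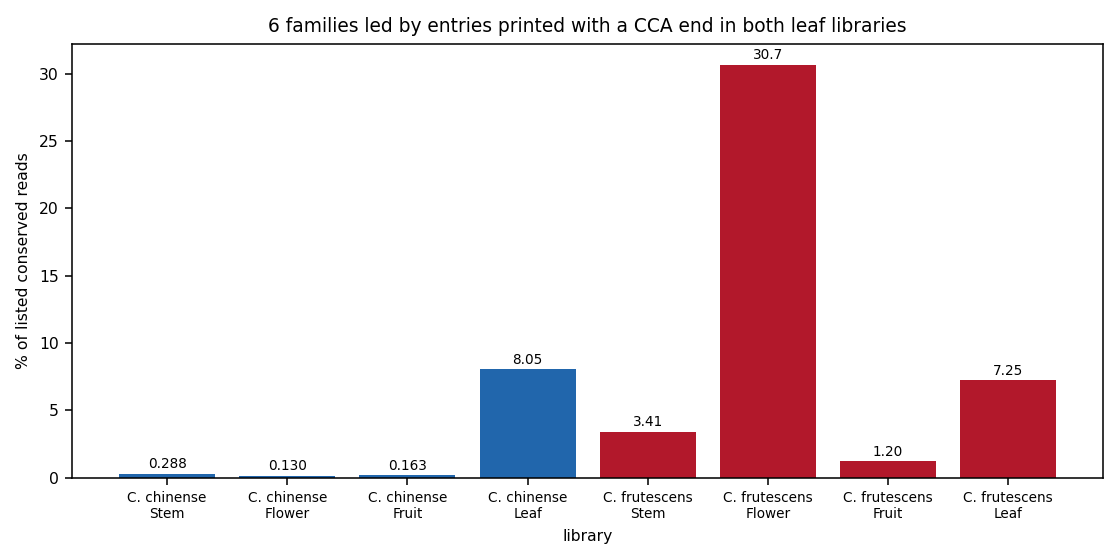
Percent of listed conserved reads taken by the 6 families with 50 or more reads whose leading entry ended in CCA in both leaves (miR894, miR2275, miR3711, miR5139, miR8155 and miR8175), for each of the 8 libraries. Blue bars are C. chinense and red bars C. frutescens, with 1 library a bar; the leaves stand at 8.05% and 7.25%.

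By shares of all listed conserved reads, miR166 included, the leaf pair was closer than the pairs of the other organs. Among families with 50 or more reads in the organ's own pair, 9.52% of 42 were 4-fold or more apart in leaf, 34.7% of 49 in stem, 47.5% of 40 in flower and 68.4% of 57 in fruit. Those higher in C. frutescens were 28.6% in stem, 37.5% in flower and 57.9% in fruit, and those higher in C. chinense 6.12%, 10% and 10.5%. For the 42 leaf families the median size of the log2 ratio was 0.70 in leaf, 1.33 in stem, 1.78 in flower and 2.44 in fruit. The log2 ratio was smallest in leaf for 24 of the 42. The families were kept on their leaf reads, each organ has 1 library per species, and this difference between organs was not tested. In C. chinense and C. frutescens, miR166 took 89.1% and 76.6% in stem, 93.9% and 42.5% in flower, and 90.6% and 60.5% in fruit. In leaf it took 63.7% and 66.8%. A smaller miR166 share in C. frutescens moves the ratios of the other families toward C. frutescens. Without miR166, the listed reads of C. chinense and C. frutescens were 153219 and 265549 in stem and 66190 and 237249 in flower. They were 57695 and 370110 in fruit, and 295009 and 81746 in leaf. In flower, miR168 had 357 and 1515 of these reads. The ratios in stem, flower and fruit were not computed without miR166, so its part in them was not tested. The order of the organs given here holds for shares with miR166 alone. miR168 is an example with miR166 in the denominator. Its share was 1.13-fold higher in C. frutescens leaf, against 11.8-fold in stem, 11.1-fold in flower and 17.2-fold in fruit. For miR398 the ratio was 1.89 in leaf and 45.4, 24.0 and 58.5 in the other organs, and for miR159 it was 1.74 against 27.9, 5.55 and 144. In each of these the C. chinense leaf library held more reads of the family than any other C. chinense library.

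Of the 42 families 17 pointed the same way in all 4 organs by shares, and 8 pointed one way in leaf and the other way in stem, flower and fruit. These shares include miR166 in the denominator, and directions in stem, flower and fruit were not computed without it. miR5141 was higher in C. chinense in every organ, 2.30-fold in stem, 2.68-fold in flower, 4.17-fold in fruit and 31.6-fold in leaf. By these shares miR4376 was higher in C. frutescens in every organ. Its ratios were 2.91 in stem (6 and 14 reads in C. chinense and C. frutescens), 3.05 in flower (12 and 14) and 22.9 in fruit (1 and 35). miR5139 was by these shares higher in C. chinense in leaf alone. Its ratios toward C. frutescens were 8.90 in stem, 251 in flower (7 and 673 reads) and 2.80 in fruit (7 and 30). miR6023 had 1 and 14 reads in stem, 4 and 1 in flower, and none against 3514 in fruit, where it was at least 767-fold higher in C. frutescens at a floor of 3 reads. miR530 was higher in C. frutescens in leaf alone, with ratios of 0.901 in stem, 0.374 in flower and 0.771 in fruit, of which the counting interval of the flower ratio alone lay below 1.

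**Figure D4:**
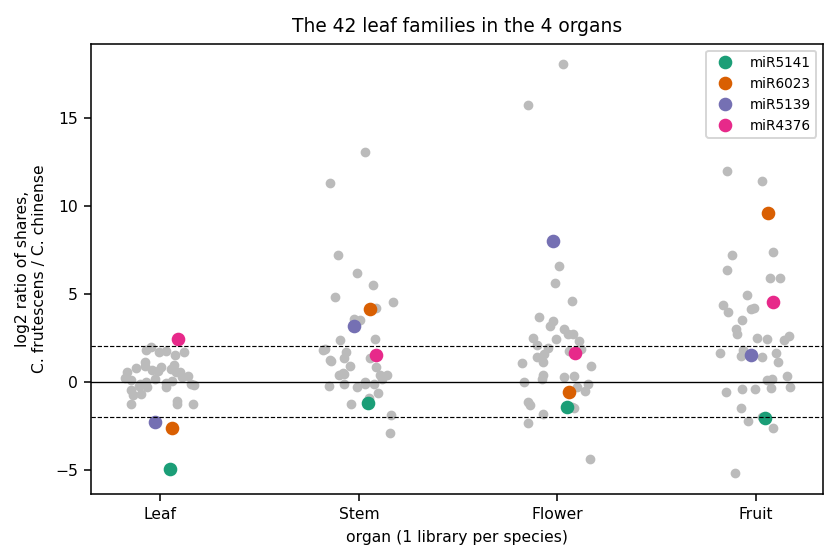
Log2 ratio of shares, C. frutescens over C. chinense, of the 42 leaf families in leaf, stem, flower and fruit, with 1 library per species and organ. Grey points are families, coloured points the 4 families past 4-fold in leaf, and dashed lines 4-fold. By these shares, which include miR166 in the denominator, points in leaf lie closer to 0 than in the other organs.

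Within families the reads fell on different entries in the 2 leaves. Entries are reference names from other plants with near-identical sequences, between which the authors' counting could split reads, so the family sums are the firmer values. In miR166, pta-miR166a gave 63.2% of the family's reads in C. chinense against 75.8% in C. frutescens, gma-miR166k 34.1% and 19.6%, and mtr-miR166c 2.23% and 4.06%. In miR482, sly-miR482b gave 71.3% and 67.5%, and ghr-miR482a 28.2% and 31.9%. In miR396 the leading entry, pta-miR396, gave 46.3% and 49.3%. The entries named here kept the same order in both leaves, while some with fewer reads did not. In miR166, mes-miR166i had 736 and 140 reads and gma-miR166c-5p 500 and 354.

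In other families the entries changed more. The leading name was another one in miR858, miR408 and miR530, and also in miR167, miR390, miR169 and miR5303. In miR858, ath-miR858b gave 979 of 1007 reads in C. chinense and had none in C. frutescens, where ppe-miR858 gave 125 of 129 against 1 read in C. chinense. Both names had the same sequence.
ath-miR858b in C. chinense and ppe-miR858 in C. frutescens: cucauugucuguucgaccuuguc
In miR408, ppt-miR408b had 315 reads in C. chinense and none in C. frutescens, where smo-miR408 had 49 reads against 1. In miR6149, stu-miR6149-5p gave 98.9% of the reads in C. chinense against 55.4% in C. frutescens, and nta-miR6149a gave 0.568% and 44.6%. In miR530, tcc-miR530a had 106 and 43 reads and stu-miR530 none and 50. Of the 71 entries with 50 or more reads in both leaves together, 7 had no read in one of them, while none of the 42 families did.

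**Figure D5:**
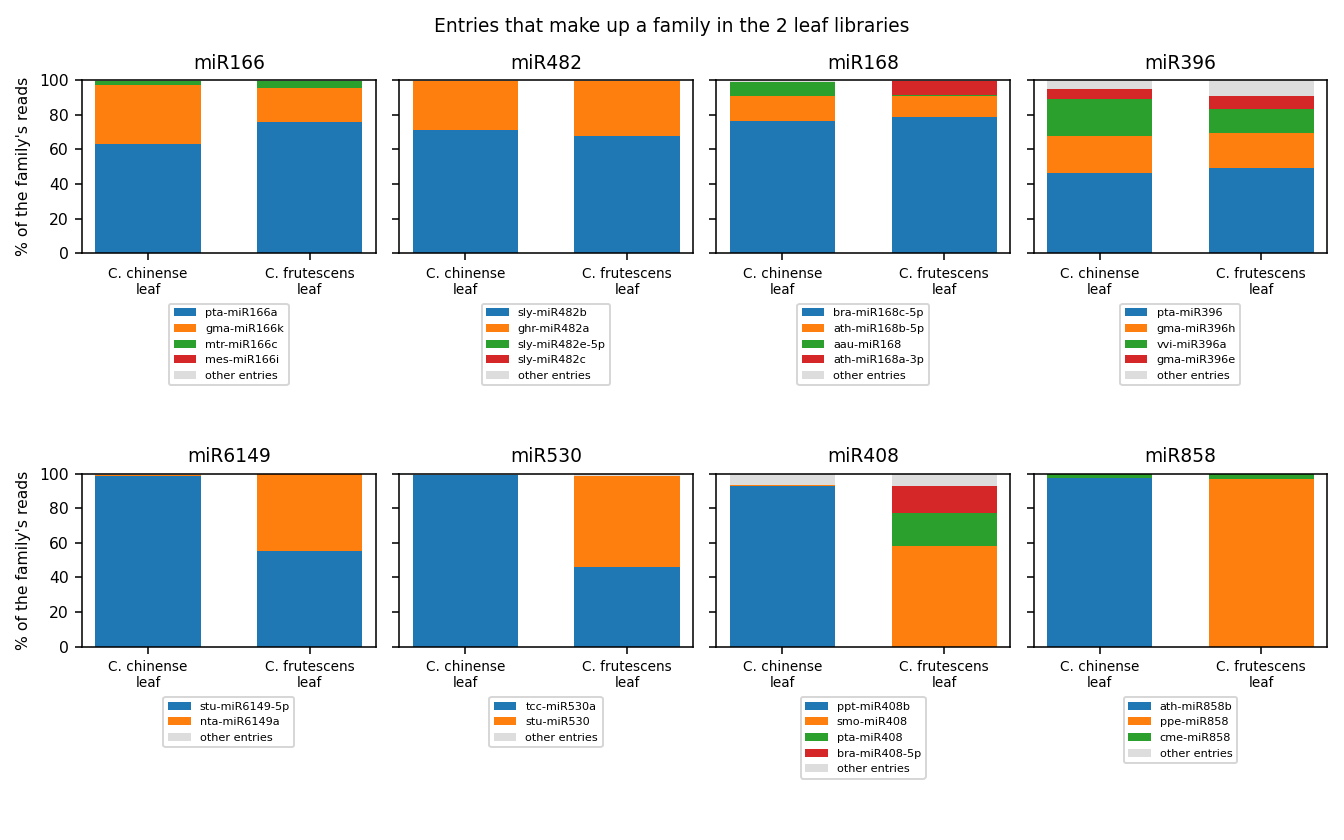
Percent of a family's reads by entry name (y axis) in C. chinense leaf and C. frutescens leaf for 8 families, with up to 4 entries in colour and the rest in grey. The leading entry was the same in both leaves for miR166, miR482, miR168, miR396 and miR6149, and changed for miR530, miR408 and miR858.

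Arms could be compared where entries carry 5p or 3p in their names, which held for 18 families with at least 50 such reads. In miR168, 99.4% of the arm-named reads were 5p in C. chinense leaf (95% interval 99.2 to 99.6) and 91.8% in C. frutescens leaf (90.4 to 93.0), which are the AGO1-targeting arm's reads. The entry ath-miR168a-3p had 135 reads in C. frutescens and none in C. chinense. The same 21 nt, in capitals, stood in an entry without an arm name.
aau-miR168, C. chinense: guuCCCGCCUUGCAUCAACUGAAU
ath-miR168a-3p, C. frutescens: aCCCGCCUUGCAUCAACUGAAU
aau-miR168 had 424 reads in C. chinense against 11 in C. frutescens. Entries with this run, chosen after the values were seen, held 8.55% of all miR168 reads in C. chinense (7.79 to 9.37) and 8.57% in C. frutescens (7.28 to 10.0). The arm shares by name thus differed while the shares by sequence lay within each other's counting interval.

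In miR166 the arm-named reads were 547 of 5p and 263 of 3p in C. chinense against 388 and 28 in C. frutescens. This made 67.5% and 93.3% for the 5p arm, which is the passenger arm, but arm-named entries held 0.157% and 0.252% of the family. In miR398 the 5p share of arm-named reads was 91.0% in C. chinense (85.2 to 95.1) and 48.7% in C. frutescens (37.2 to 60.3). It came from 132 and 38 reads of 5p and 13 and 40 of 3p, in entries that held 37.9% and 35.5% of the family. The leading entry, gma-miR398c, had 236 and 125 reads and carried no arm name, so these are not shares of the whole family. The 5p reads came from zma-miR398b-5p, whose sequence was 36 nt in both leaves. In miR162 the 3p arm, which targets DCL1, held 91.9% in C. chinense and 91.2% in C. frutescens, and the interval of the latter was 83.4 to 96.1. For miR482 the 5p share was 54.9% (48.8 to 60.8) and 60.3% (51.2 to 68.9), from 0.297% and 0.371% of the family's reads.

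In miR390 the 5p arm, which is the one known to start tasiRNA production, held 69.6% and 82.9% of arm-named reads with intervals that overlap. Arm-named entries held 40.6% and 53.2% of the family. They leave out ppt-miR390b (92 and 27 reads), whose sequence was nearly that of gma-miR390b-5p. In miR167 the 3p arm had 67 reads in C. chinense against 5 in C. frutescens, 4.07-fold more by share in C. chinense (1.66 to 12.9), while the family's ratio was 0.935. miR171 had 69 and 14 reads of 5p, and miR159 13 and 8 of 5p with 40 and 10 of 3p. Arm-named reads of miR2275 and miR170 were 5p alone, and those of miR6027, miR396, miR165 and miR403 3p alone. For miR396 arm-named entries held 4.65% and 8.80% of the family. miR6149 had 2 reads of 3p in C. chinense and none in C. frutescens, and miR7767 had 1 read of 3p, in C. frutescens.

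The predicted miRNAs, named by the authors in each library separately, numbered 115 in C. chinense leaf with 809 reads and 89 in C. frutescens leaf with 674. Per 1000000 listed conserved reads these were 996 and 2734 reads. Although 44 names were used in both sheets, none of them had the same sequence in both, so the leaves were joined by sequence. Sequences of 23 nt and 24 nt made up 48.7% and 34.8% of the entries in C. chinense leaf, and 30.3% and 24.7% in C. frutescens. A U stood first in 35.7% and 25.8% of them.

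3 sequences were identical in both leaves, and 3 more differed in length alone. They are shown because they are the predicted forms that both species share, with the run in common in capitals.
Cap-m0035-3p in C. chinense and Cap-m0027-3p in C. frutescens: GAAAUCUUGCCGAUUCCCCCCCA
Cap-m0098-3p in C. chinense and Cap-m0041-3p in C. frutescens: UUGCGUCGUUGUGCCUGGGCUGUG
Cap-m0023-3p in C. chinense and Cap-m0014-3p in C. frutescens: GGAAAGCUCACUGGGAUAGAU
Cap-m0086-3p in C. chinense: UUUUUCACGAUGAUCGGGGUUACu
Cap-m0058-3p in C. frutescens: UUUUUCACGAUGAUCGGGGUUAC
Cap-m0052-3p in C. chinense: uuCGAGCCCCGCUGGGACCAUAAU
Cap-m0035-3p in C. frutescens: CGAGCCCCGCUGGGACCAUAAU
Cap-m0112-5p in C. chinense: uuUUAGGACUCCGCCGGCACCUUA
Cap-m0081-5p in C. frutescens: UUAGGACUCCGCCGGCACCUUA
The first had 56 reads in C. chinense against 35 in C. frutescens, a ratio of 2.06 to the listed conserved reads (1.31 to 3.20), and stood with the same letters in 6 of the 8 libraries. Counting length variants, C. frutescens flower alone did not list it. Its longest run in common with a conserved entry of the same leaf was 17 nt, with vun-miR2118, a relative of miR482. The second had 3 and 9 reads (ratio 9.88, 2.47 to 56.7) and was listed in the leaf libraries alone. The third had 3 reads in each. The length variants had 38 and 24 reads, 24 and 14, and 3 and 3.

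The predicted sequence with most reads in C. frutescens leaf was listed in no other library. It is shown with leading sequences of both leaves that the other leaf did not list.
Cap-m0069-3p in C. frutescens: cauuugugggauaccgggcugccu
Cap-m0065-5p in C. chinense: cucugaagacgaagcuacaccuu
Cap-m0059-3p in C. chinense: caucgguaagacaacuuuggcu
Cap-m0009-5p in C. chinense: cgaugagccucguauacgcaug
Cap-m0007-3p in C. frutescens: gcuccuguugcagcugcuaccgca
Cap-m0069-3p had 203 reads, 30.1% of the predicted reads of that leaf (26.7 to 33.7). Cap-m0065-5p, the leading one in C. chinense leaf, had 62 reads, 7.66% (5.93 to 9.72), and was also listed in C. chinense flower with 18 reads. Cap-m0059-3p had 48 reads and was in no other library. Cap-m0009-5p had 32 reads and stood in C. chinense stem and flower as well, and Cap-m0007-3p had 23 reads in C. frutescens leaf alone. No precursor was used to check these predictions.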

How the data were processed

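Small RNA was sequenced on an Illumina Genome Analyser II from TruSeq libraries, 1 per species and organ, each from RNA of 3 pooled biological replicates, per the labels' protocols. The authors deposited raw read counts per conserved entry and per predicted entry, in 16 sheets, each entry with 1 sequence per library. The sources used here name no aligner, mismatch limit or miRNA database version for these counts. The members and lists were chosen with earlier results of these data known. Entry counts were summed by miR number, and families with 50 or more reads in both leaves together were kept. Shares are of all listed conserved reads (811863 and 246508), with and without miR166. Ratios have exact 95% conditional binomial intervals and shares exact Clopper-Pearson intervals, which cover counting error only. A count of 0 was set to 3 reads for a fold. With 1 library per group no test was run. Families were named if among the 10 with the highest mean share, 4-fold or more apart, among the members of a list with most reads, next to the minimum or with arm-named reads; miR5083 and miR530 were named for their direction, after their values were seen. TMM factors came from edgeR 4.0.16 and size factors from DESeq2 1.42.0, used for scaling alone. Scripts ran in Python 3.11.15 and R 4.3.3 and were tested on simulated data. Alternatives covered scaling, denominator, minimum, unit and sequence length.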

Additional observations from a re-analysis of the deposited data

Results flagged for a closer look

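miR5139 and miR6023 pointed one way in leaf and the other way by 4-fold or more in a pair of other organs. The leaf log2 ratio of miR5139, C. frutescens over C. chinense, was -2.29, while it was 3.15 in stem and 7.97 in flower. That of miR6023 was -2.64 in leaf and 4.13 in stem, where C. chinense had 1 read, and in fruit C. chinense had none against 3514. Each value comes from 1 library per species, and the difference between organs was not tested.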

How the results depend on the processing

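Replicates could not be left out in turn, since each group is 1 library. No paired analysis was possible because each group has 1 library and no test was run. Families 4-fold or more higher in C. frutescens leaf (1), those higher in C. chinense leaf (3) and the median log2 ratio (0.18) moved as follows. Without miR166 they were 2, 3 and 0.32. TMM factors of the leaf libraries gave 0, 7 and -0.88, those of all 8 libraries 0, 3 and -0.49, and DESeq2 size factors 0, 6 and -0.69. TMM factors of the 42 families, added after seeing the data, gave a median of -0.11. The denominator without the families with CCA-ended entries was also added after seeing the data. A minimum of 10 reads gave 3 and 5 families of 66, and a minimum of 100 gave 0 and 3 of 37. No minimum gave 23 and 5 with a median of 0.72, over the 207 of 584 listed families that had a ratio. A family with 0 reads in one leaf had none if the floor of 3 reads turned its direction. With a 3.29-fold difference in depth, a family of C. chinense alone needed more reads to count, so this setting is one-sided. A minimum set after scaling to one depth gave 1 and 1 of 33 and a median of 0.31. Entry names as the unit gave 6, 10 and -0.0236, and distinct sequences 33, 48 and -1.39. Entries of 18 to 24 nt gave 2, 13 and -2.21, and entries over 24 nt 2, 4 and 0.42. A mark of 2-fold gave 8 and 7 families, 8-fold 0 and 1, and a whole interval past 4-fold 0 and 1. In 18 to 24 nt entries the log2 ratio of miR4376 turned to -0.16, that of miR5139 to 3.87, that of miR5300 to -1.46 and that of miR393 to -0.90. All reads of miR4376, miR5300 and miR393 were in these entries, so for them the denominator alone changed. The share of miR166 was 75.7% in C. chinense and 74.9% in C. frutescens without the fragment list, and 61.1% and 89.0% in 18 to 24 nt entries. Families listed fell from 529 to 217 and from 258 to 99 at 2 or more reads, and from 529 to 253.4 at the depth of C. frutescens leaf. Predicted sequences in both leaves rose from 3 to 6 when length variants counted. Over 28 named families 82 of 223 alternative log2 ratios stayed within the counting interval of the reported one, and 41 changed sign, 2 of them for families past 4-fold, miR4376 and miR5139. The causes of these moves were not tested beyond the construction of each alternative. Of the 203 families in both leaves 144 had under 10 reads in each, which limits the directions of rare families.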

Other observations

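Among 24 families with 10 to 49 reads in both leaves together, 4 were 4-fold or more apart by shares. Of the 42 kept families, 4 were (9.52%). miR2599 had 23 reads in C. chinense leaf and 1 in C. frutescens leaf (ratio 0.143, 0.00348 to 0.882). miR6026, a Solanaceae family, had 16 and 1, and its interval held 1 (0.00491 to 1.32). miR3630 had 18 and 24 reads (ratio 4.39, 2.29 to 8.59) and miR6483 had 13 and 27 (6.84, 3.41 to 14.4). For none of the 4 did the whole interval lie past 4-fold. These were chosen after their values were seen.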
